A study of Mus musculus with 32 samples.

Results

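The comparison described here is the 24 h response to lipopolysaccharide (LPS) of naive HSPCs (haematopoietic stem and progenitor cells), which renew every blood lineage in the marrow. It takes the 8 naive tables of the 16 in the series, 4 from mice given LPS and 4 from mice given phosphate-buffered saline (PBS), chosen by their titles. All HSPCs came from wild-type marrow on the C57BL/6J background that carried both CD45.1 and CD45.2, and were sorted from marrow as Lin-, Kit+ and Sca1+. For naive mice, 800000 such marrow cells were transplanted into lethally irradiated CD45.2 recipients beside 200000 CD45.1 partner cells that were homozygous for the doxycycline-responsive activator rtTA and lacked hMLL-AF9. These mice therefore shared irradiation, transplantation and rtTA-bearing neighbours, and the design schedules doxycycline from 6 to 8 weeks after transplantation, for 5 weeks, followed by 4 weeks without it. Experienced mice, whose libraries share the estimate of the spread in the fit and are compared with naive mice at the end, differed in that their partner cells carried homozygous hMLL-AF9, a leukaemia fusion, besides rtTA. The labels used here state neither the age of the mice nor the LPS dose, nor whether animals were pooled for a replicate.

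LPS is a cell wall component of Gram-negative bacteria that Toll-like receptor 4 senses together with its partners Cd14 and Ly96. From there the adaptor Myd88 leads to nuclear factor kappa B and inflammatory cytokines, and the adaptors Ticam1 and Ticam2 lead to type I interferon. HSPCs can respond to LPS itself and to cytokines made by other marrow cells, and inflammation is known to raise surface Sca1, which is one of the markers of the sort.

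Depth ranged from 8.54 M to 22.1 M expected counts per naive library (M stands for 1e+06), with means of 19.5 ± 2.40 M (SD, n = 4) after PBS and 15.3 ± 6.29 M after LPS. Mitochondrial transcripts made up 2.12% to 4.26% of the counts. Replicates were less alike after LPS: the median within-group SD of log2 CPM (counts scaled to library size) was 0.39 after LPS and 0.18 after PBS, and 12442 of 15186 tested genes had the larger SD after LPS. PBS replicate 4 had 17609 detected genes against 19476 to 19673 in the other PBS libraries and was low in several myeloid and erythroid genes described below. Among libraries outside this comparison, experienced LPS replicate 4 stood apart, with 7.30% mitochondrial counts, and it enters the shared estimate of the spread. The transcripts that define the sorted cells were present in every library, with Kit between 118 and 232 TPM, a transcript level scaled for gene length and library.

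LPS raised 1490 genes (9.81% of the 15186 tested) and lowered 1803 (11.9%), so that 21.7% were called in all. These calls used the quasi-likelihood test of edgeR with p-values adjusted by Benjamini and Hochberg's method and a threshold of 0.05. Rises outnumbered falls among abundant transcripts and falls outnumbered rises among scarce ones. The median log2 change was 0.78 for genes that rose and −1.21 for genes that fell, and 487 rises and 1094 falls exceeded 2-fold. When genes were divided by mean CPM into 4 bins of equal size, 624 rose and 308 fell in the highest bin, whereas 121 rose and 452 fell in the lowest. Among called genes, 2954 of 3293 had groups whose CPM did not overlap, against 4442 of all tested genes (29.3%). The number of rises moved with single libraries, to 768 without PBS replicate 2, 938 without PBS replicate 3 and 902 without PBS replicate 4. With test and unit changed together, from edgeR on counts to limma on log2(TPM + 1), called the TPM scale below, there were 374 rises and 1506 falls. Without experienced LPS replicate 4 there were 2184 rises and 2214 falls. Of the calls, 45.2% were rises by TMM-scaled counts, 35.0% with upper-quartile scaling and 19.9% by limma on TPM.

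**Figure D1:**
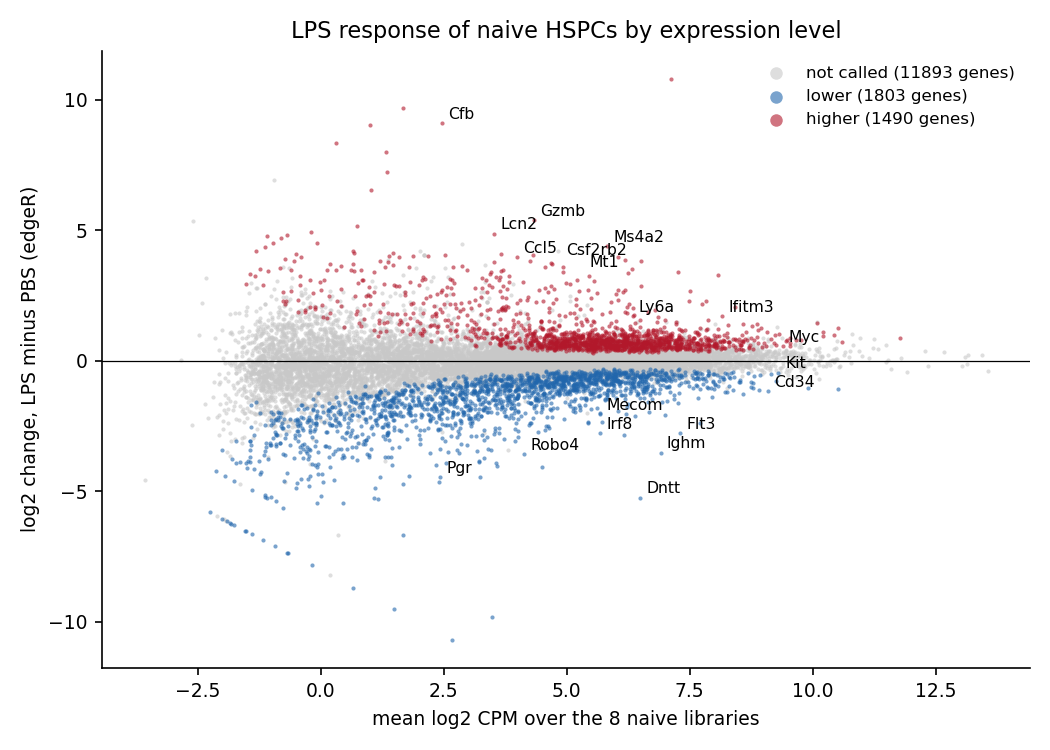
Each point is 1 of 15186 tested genes, with its mean log2 CPM over the 8 naive libraries on the horizontal axis and its log2 change after LPS on the vertical axis, and colours mark genes called higher (1490), lower (1803) or not called. The called genes include more falls than rises at low levels and more rises than falls at high levels. Some large falls lie at higher levels, such as that of Dntt (−5.24 at a mean log2 CPM of 6.50).

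The largest rises by the rule for named genes were those of Cfb, Gzmb, Lcn2, Ms4a2, Clec5a, Cdh1, Il1rl1, Ccl5, Mt1, Mt2, Csf2rb2 and Rhag. Cfb, complement factor B of the alternative pathway (ENSMUSG00000090231, chromosome 17, 34856374 to 34862518, GRCm38), was the extreme case. It was at 0, 0.12, 0 and 0 TPM in the PBS libraries and at 7.09, 4.39, 7.16 and 7.41 TPM after LPS. All PBS libraries together held 1 count of Cfb and the LPS libraries 699, a ratio per total count of 891 (95% exact interval 159 to 35241, counting error only). Lcn2, an iron-sequestering protein, rose from 1.88, 0.32, 1.81 and 0.82 TPM to 44.2, 31.4, 35.9 and 21.8 TPM, a log2 change of 4.88 (SE 0.69, edgeR adjusted p = 0.000199). Cdh1, the adhesion protein E-cadherin (4.00, SE 0.80, and 4.80 without PBS replicate 3), and Clec5a, a myeloid lectin receptor (4.03, SE 0.83), stood among them. Clec5a was highest in LPS replicate 2, and its change was 3.09 without that library.

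The largest falls were spread over genes of varied roles. Dntt, the template-independent DNA polymerase of lymphocyte receptor assembly (ENSMUSG00000025014, chromosome 19, 41029275 to 41059525), led with −5.24 (SE 0.45). The progesterone receptor Pgr (−4.47, SE 0.75), the guidance cue Sema3d (−4.66, SE 0.57), Sgsm1 (−4.45, SE 0.53), the secreted protein Scube3 (−4.02, SE 0.37), the potassium channel subunit Kcng1 (−3.93, SE 0.51) and Slc16a11 (−3.92, SE 0.80) followed. The rule that named these 7 genes required groups that did not overlap in CPM, a trait of 29.3% of all tested genes. Pgr stood at 1.96 to 3.10 TPM after PBS and 0.02 to 0.19 TPM after LPS. The fall of Apob, the carrier protein of lipoproteins, was −3.83 (SE 0.66) and −4.61 without LPS replicate 2.

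Of the 2 genes that name the positive markers of the sort, Ly6a rose and Kit was not called. Ly6a, which encodes Sca1 (ENSMUSG00000075602, chromosome 15, 74994877 to 74998031), stood at 69.6, 52.1, 48.9 and 70.9 TPM after PBS and at 231, 90.7, 215 and 205 TPM after LPS. All LPS libraries lay above all PBS libraries, with replicate 2 the lowest of them, and Ly6a rose by 1.72 (SE 0.34, edgeR adjusted p = 0.00237). Kit, the stem cell factor receptor, was at 189, 232, 215 and 176 TPM after PBS and 222, 166, 140 and 118 TPM after LPS. These ranges overlapped, and the change of −0.43 (SE 0.16) did not pass the test (adjusted p = 0.0671). Outside the gate, Cd34, a sialomucin of progenitors, fell from 344, 410, 458 and 370 TPM to 198, 330, 135 and 115 TPM (−1.18, SE 0.17), with replicate 2 again nearest to the PBS level. Cd48, Slamf1 and Ptprc were not called. Sca1 is part of the gate and these are bulk samples. More or fewer cells of a type in the sort therefore cannot be told apart from more or less RNA per cell. The same holds for every result below.

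**Figure D2:**
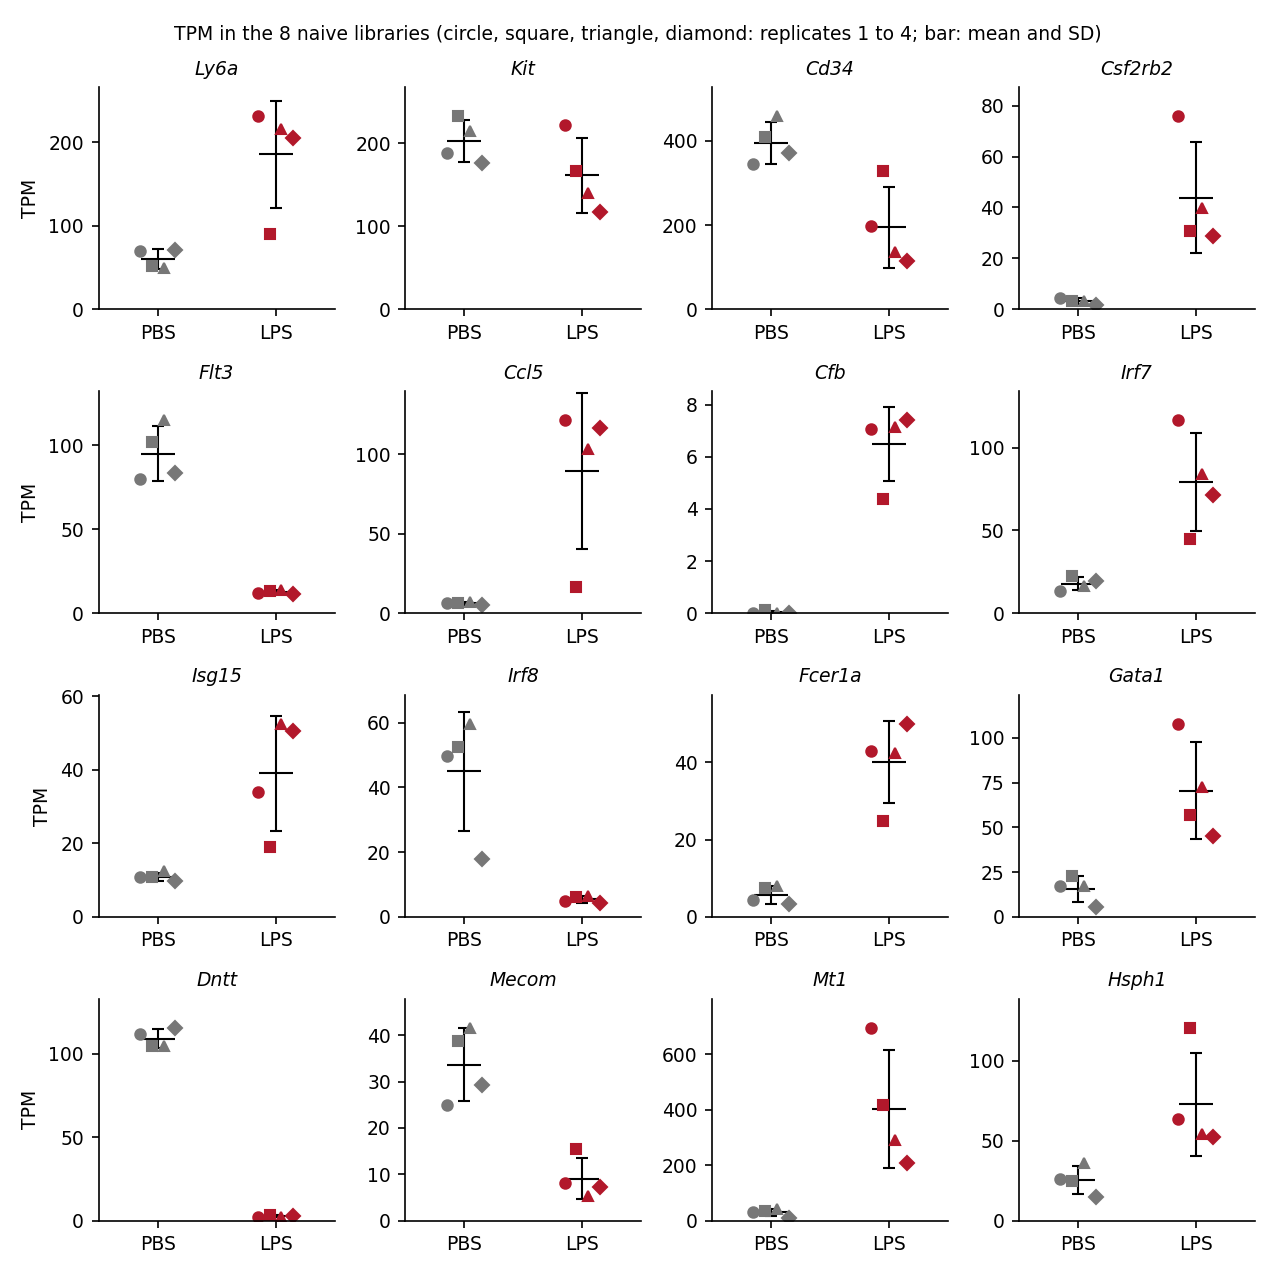
TPM of 16 genes in the 8 naive libraries, PBS in grey and LPS in red, where the marker shape gives the replicate, the horizontal bar the mean and the error bar the SD (n = 4). In Kit the groups overlap in TPM. The other panels show called genes, picked in part by low adjusted p or after values were seen, so their separation is not a result. Cfb, Ccl5, Csf2rb2, Mt1 and Dntt were named by a rule that required groups without overlap in CPM, a trait of 29.3% of all tested genes. LPS replicate 2, the square, is the lowest LPS library for Ly6a, Ccl5, Cfb, Irf7, Isg15 and Fcer1a.

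Transcripts of the LPS sensor itself were scarce and few genes of its relay changed. Of 23 sensing and relay genes, 1 rose and 2 fell, beside 21.7% of all genes called, and 1 fell without LPS replicate 1 or 2 or any 1 PBS library. Tlr4 was at 4.56, 6.82, 5.96 and 5.83 TPM after PBS and 6.18, 7.30, 2.50 and 3.25 TPM after LPS. Its ranges overlapped and its change was −0.55 (SE 0.28, edgeR adjusted p = 0.174), and neither Ly96 nor Cd14 was called. Ticam2, the adaptor that leads Toll-like receptor 4 to the interferon branch, fell from 13.9, 16.9, 18.9 and 13.04 TPM to 7.56, 8.81, 4.95 and 4.10 TPM (−1.20, SE 0.18), a fall present in all 4 LPS libraries. Chuk, a kinase that frees nuclear factor kappa B, was the gene that rose (0.58, SE 0.13), a call absent on the TPM scale.

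In the list of nuclear factor kappa B subunits, inhibitors and targets, 4 rose and 4 fell of 21 tested. The shares over all tested genes were 9.81% and 11.9%. Tnfaip3, a deubiquitinase that ends the signal, rose from 15.3, 31.2, 27.6 and 30.3 TPM to 149, 61.5, 50.2 and 93.7 TPM (1.95, SE 0.41). Replicate 1 was the highest LPS library, and none overlapped PBS. The inhibitor Nfkbia rose by 0.81 (SE 0.24, edgeR adjusted p = 0.0244), but its call was lost without LPS replicate 1 (0.54), PBS replicate 3 (0.78) or PBS replicate 4 (0.73) and on the TPM scale. The cytokine Il1b rose by 2.61 (SE 0.65) at a low level, 0.10 to 0.51 TPM after PBS and 0.94 to 2.00 TPM after LPS. Icam1, an adhesion molecule, fell by 0.70 on the log2 scale (SE 0.17). The falls numbered 2 without LPS replicate 3 or 4 or PBS replicate 2 or 3, and on the TPM scale 2 rose and 2 fell.

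Cytokine receptors changed in both directions, with 5 rises and 11 falls among 26 tested, and 3 rises and 10 falls on the TPM scale. The shares over all tested genes were 9.81% higher and 11.9% lower. Csf2rb2, a chain through which interleukin-3 signals (ENSMUSG00000071714, chromosome 15, 78282507 to 78305721), went from 4.63, 3.47, 3.30 and 1.73 TPM to 75.7, 30.9, 39.8 and 28.7 TPM. This rise of 3.83 (SE 0.32, edgeR adjusted p = 4.88e-06) was accompanied by one of 2.16 (SE 0.20) in Csf2rb, the common beta chain, whose sequence is close enough for reads to be divided between them. Flt3, the receptor of early lymphoid and dendritic progenitors (ENSMUSG00000042817, chromosome 5, 147330741 to 147400489), fell from 79.8, 102, 115 and 83.2 TPM to 12.1, 13.2, 13.5 and 11.5 TPM (−2.77, SE 0.32). The LPS libraries were closer together than the PBS libraries for this gene. Csf3r, through which the granulocyte growth factor G-CSF acts, fell from 87.1, 109, 114 and 91.1 TPM to 54.4, 34.0, 33.8 and 39.0 TPM (−1.30, SE 0.24). The interferon receptors, singled out after their values were seen, diverged: Ifngr1 rose (0.86, SE 0.21) and Ifnar1 fell (−0.63, SE 0.13), both calls absent on the TPM scale. Of 18 Stat and Socs genes, 2 rose, near the share of all genes, and 4 fell. Only 1 rose without LPS replicate 1 or PBS replicates 1, 2 or 4 and on the TPM scale, and 2 fell without PBS replicate 4. Stat4 fell by 1.44 on the log2 scale (SE 0.16), and the feedback gene Socs3 was not called (0.70, SE 0.37).

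Among 11 tested chemokines 4 rose and 1 fell, beside 9.81% and 11.9% of all genes, with a median of −0.55 (0.02 over all genes). Ccl5 rose from 6.28, 6.65, 6.73 and 4.86 TPM to 121, 16.6, 103 and 117 TPM (3.96, SE 0.55), and LPS replicate 2 was far below its group, though above every PBS library. Cxcl10, an interferon-induced chemokine, rose from 1.24, 2.47, 1.24 and 2.51 TPM to 26.0, 8.85, 12.2 and 13.99 TPM (3.39, SE 0.39). Cxcl2, a neutrophil attractant, was called higher (1.79, SE 0.52), but not without LPS replicate 1 (1.41), PBS replicate 3 (1.62) or PBS replicate 4 (1.59) or on the TPM scale. The count of rises was 2 without PBS replicate 3 or PBS replicate 4 and on the TPM scale. Of 14 acute phase and complement genes, 7 rose and 2 fell, and on the TPM scale 5 rose and 1 fell. The protease inhibitor Serpina3f rose from 3.01, 3.87, 4.77 and 2.39 TPM to 37.1, 14.2, 20.6 and 18.0 TPM (2.80, SE 0.24), and properdin, encoded by Cfp, fell by 1.66 on the log2 scale (SE 0.29).

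Called interferon-induced genes were all higher after LPS. Of 47 tested, 27 rose and 0 fell, beside 9.81% and 11.9% of all genes. A change above 0 was seen in 46, and the median change was 0.85. Their summed level was 2329 to 2506 TPM in the PBS libraries and 3348 to 6942 TPM in the LPS libraries, lowest in replicate 2 and highest in replicate 1. Irf7, a transcription factor that feeds back on interferon genes (ENSMUSG00000025498, chromosome 7, 141262706 to 141266481), rose from 13.2, 22.6, 16.4 and 19.2 TPM to 117, 44.7, 84.3 and 71.5 TPM (2.33, SE 0.31, edgeR adjusted p = 0.000113). Ifitm3, which restricts viruses at the membrane, went from 312, 278, 280 and 345 TPM to 1236, 632, 1005 and 882 TPM (1.72, SE 0.24). Usp18, which removes Isg15 from proteins, rose by 1.65 (SE 0.26), and Zbp1, a sensor of nucleic acids, rose by 2.35 (SE 0.36). The number of rises was 17 without PBS replicate 2 and 17 on the TPM scale, with 0 falls in both.

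Short stretches before the start sites of 3 interferon-induced genes that rose, chosen after their values were seen, show the element through which interferon-activated Stat and Irf factors bind. They are from RefSeq on GRCm38.p6, 5′ to 3′ on the gene's strand, with capitals for bases that match GAAANNGAAA on either strand, overlapping matches merged.
Isg15, chr4:156200865-156200906, minus strand: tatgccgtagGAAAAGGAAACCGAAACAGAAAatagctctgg
Ifit1, chr19:34640775-34640823, plus strand: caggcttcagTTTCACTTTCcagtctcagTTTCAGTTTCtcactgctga
Bst2, chr8:71537577-71537612, minus strand: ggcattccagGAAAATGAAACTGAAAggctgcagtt
In Isg15 there were 3 overlapping matches, in Bst2 there were 2, and in Ifit1 there were 2 separate ones that read as the reverse complement. Isg15, a ubiquitin-like modifier, rose from 10.9, 10.7, 12.4 and 9.84 TPM to 33.9, 19.0, 52.4 and 50.6 TPM (1.99, SE 0.39). Ifit1, which binds foreign RNA, rose by 1.78 (SE 0.32) and the virus tether Bst2 by 1.09 (SE 0.26). Over the window from 250 bases before to 50 after the start, a match was found in 16 of 37 interferon list members with a window (43.2%). Among the 20 of these called higher, 9 held a match, so the matches were not confined to the members that rose. Of the 10296 tested genes with a window, 3.88% held one. That share was 5.76% among tested genes called higher and 3.44% among those called lower. A match is a description of letters and not of a bound site.

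Of 15 guanylate-binding proteins and immunity-related GTPases, which attack pathogen vacuoles and respond to interferon gamma, 6 rose and 1 fell, 13 had a change above 0 and the median was 0.73, with Irgm1 at 1.03 (SE 0.18) and Gbp7 at 0.86 (SE 0.16), and on the TPM scale 2 rose and 0 fell. The fall was absent in 6 of the 8 fits that each left out a naive library, those without LPS replicates 1, 3 or 4 or PBS replicates 1, 2 or 4. Of 20 genes of class I antigen presentation, 2 rose, near the share of all tested genes that rose (9.81%). These rises numbered 4 without LPS replicate 2, 1 without PBS replicate 2 or 3 and 1 on the TPM scale, and H2-Q7 was at 0.89 (SE 0.21). Of 10 class II genes 0 rose and 4 fell, beside 11.9% of all genes that fell. H2-Ob, a modulator of class II loading, fell by 1.53 on the log2 scale (SE 0.23). The falls numbered 2 without PBS replicate 1 or PBS replicate 2. Interferon regulatory factors split as well, since 4 of 11 fell and 2 rose, or 1 on the TPM scale and without any 1 naive library but LPS replicate 2. Irf8, which directs monocyte and dendritic fates, fell from 49.8, 52.4, 59.6 and 18.0 TPM to 4.93, 6.22, 6.50 and 4.22 TPM (−2.77, SE 0.37). PBS replicate 4 was the lowest of its group but still above all LPS libraries. Irf5 fell too (−2.02, SE 0.22).

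In the sorted pool, lymphoid transcripts were lower and basophil, mast cell and erythroid transcripts higher after LPS. A change in which cells entered the sort was not tested. Of 22 lymphoid priming genes, 15 fell and 0 rose (median −1.85), beside 11.9% and 9.81% of all genes. Dntt was at 112, 104, 105 and 116 TPM after PBS and 2.06, 3.36, 2.23 and 3.04 TPM after LPS. The actin-binding protein Lsp1 fell by 2.04 (SE 0.17) and the GTPase Gimap6 by 2.12 (SE 0.25) on the log2 scale. The B and plasma cell list had 10 tested genes, of which 6 fell, with 0 rises. Ighm, the mu heavy chain, whose transcripts also occur in uncommitted progenitors, fell from 114, 255, 149 and 238 TPM to 10.2, 26.3, 11.7 and 14.1 TPM (−3.52, SE 0.53). The falls in this list numbered 4 to 5 when 1 naive library was left out. The defining B cell marker Ms4a1 was scarce in both groups, at 0.02 to 0.18 TPM. Other members were not scarce after PBS. Igkc stood at 312 to 540 TPM after PBS and 37.7 to 87.8 TPM after LPS, and Jchain at 11.9 to 22.8 and 0.11 to 1.77 TPM.

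Of 17 basophil and mast cell genes, 13 rose and 1 fell, beside 9.81% and 11.9% of all genes, with a median of 2.77. Fcer1a, the binding chain of the high-affinity immunoglobulin E receptor (ENSMUSG00000005339, chromosome 1, 173221284 to 173227214), rose from 4.29, 7.39, 8.00 and 3.22 TPM to 42.9, 24.9, 42.5 and 49.9 TPM (3.002, SE 0.31). Its partner chain Ms4a2 (4.40, SE 0.59), the interleukin-33 receptor Il1rl1 (3.96, SE 0.65) and the leukotriene enzyme Alox5 (3.21, SE 0.52) rose as well. Gzmb, a granule protease, was at 0.24, 0.59, 1.90 and 1.01 TPM after PBS and 74.6, 10.6, 23.3 and 35.0 TPM after LPS (5.38, SE 0.67), so that the LPS libraries differed among themselves more than for Fcer1a. The summed level of the list was 152 to 262 TPM after PBS and 440 to 977 TPM after LPS.

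Of 21 erythroid genes, 14 rose and 0 fell (median 2.25), beside 9.81% and 11.9% of all genes. Gata1, the master factor of erythroid and megakaryocyte cells, rose from 17.3, 22.7, 17.1 and 5.47 TPM to 108, 56.8, 72.5 and 45.1 TPM (2.25, SE 0.48), and PBS replicate 4 was its lowest library. The ammonium channel gene Rhag (3.76, SE 0.97) and the water channel Aqp1 (2.66, SE 0.68) rose. Among markers of later erythroid cells, Hba-a1 stood at 0 to 0.25 TPM and Slc4a1 at 0.07 to 2.03 TPM over the 8 libraries. Both were picked after their values were seen, and the list members Alas2 and Hbb-bt were not called. The erythroid rises numbered 8 on the TPM scale, 8 without LPS replicate 1, PBS replicate 2 or PBS replicate 3, 7 without LPS replicate 3 or PBS replicate 1 and 5 without PBS replicate 4. Of 16 erythroid genes with a promoter window, 5 held the Gata letters AGATAA (31.2%), against 8.07% of all. Among the 12 of these called higher, 3 held the letters, and the windows of Gata1, Rhag and Aqp1 held 0 matches.

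In the megakaryocyte and granulocyte-monocyte lists the falls were near the 11.9% of all tested genes that fell. The share that rose over all tested genes was 9.81%. Of 19 megakaryocyte genes, 5 rose and 2 fell, and Itga2b, the integrin CD41, rose from 109, 118, 119 and 53.5 TPM to 259, 220, 232 and 239 TPM (1.21, SE 0.24). Its partner Itgb3 rose by 1.89 (SE 0.24). The falls numbered 1 without LPS replicate 1, LPS replicate 3 or any PBS library but replicate 3, and on the TPM scale 2 rose and 3 fell. Of 23 granulocyte and monocyte genes, 4 rose and 3 fell. Ms4a3, a marker of granulocyte-monocyte progenitors, rose from 28.5, 35.3, 40.0 and 8.47 TPM to 136, 140, 235 and 127 TPM (2.73, SE 0.57), whereas lysozyme Lyz2 fell from 121, 124, 125 and 131 TPM to 32.4, 31.5, 32.0 and 36.1 TPM (−1.79, SE 0.21). Mpo, myeloperoxidase, was at 774, 816, 1011 and 304 TPM after PBS and 920, 1450, 956 and 368 TPM after LPS and was not called (0.43, SE 0.40), and replicate 4 was the low library in both groups. The factors Cebpa, Cebpb and Spi1 were not called. The rises numbered 2 without LPS replicate 2 or PBS replicates 1, 2 or 4 and on the TPM scale.

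Genes of stem cell identity fell broadly, 17 of 29 with 3 rises and a median of −0.98. Over all tested genes 11.9% fell and 9.81% rose. Mecom, needed to maintain stem cells (ENSMUSG00000027684, chromosome 3, 29951296 to 30548008), fell from 24.9, 38.7, 41.6 and 29.3 TPM to 8.18, 15.4, 5.28 and 7.23 TPM (−2.03, SE 0.20). Hlf, a transcription factor of long-term stem cells, fell from 95.5, 131, 132 and 140 TPM to 22.6, 32.6, 11.9 and 21.1 TPM (−2.40, SE 0.27), and again replicate 2 was the highest LPS library. Robo4, a guidance receptor that helps keep stem cells in the niche, fell from 8.87, 12.8, 9.60 and 10.8 TPM to 1.01, 0.86, 0.65 and 0.83 TPM (−3.57, SE 0.26). Clca3a1, a chloride channel regulator with near-identical relatives, rose from 6.04, 5.25, 3.79 and 3.66 TPM to 73.8, 37.3, 37.9 and 35.9 TPM (3.38, SE 0.32).

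The 7 transcription factors of the blood heptad did not fall together. Gata2, shared by stem and mast cells, rose from 93.0, 109, 99.3 and 84.7 TPM to 254, 126, 138 and 127 TPM (0.83, SE 0.17), while Lmo2 (−0.47, SE 0.12) and Lyl1 (−0.98, SE 0.26) fell. Erg was also called lower (−0.81, SE 0.27, edgeR adjusted p = 0.04), but kept its call only without LPS replicate 2 among the 8 fits that each left out 1 naive library, with changes of −0.65 to −0.86 in the other 7. Of 22 genes of DNA methylation and Polycomb repression, 2 rose and 5 fell, beside 9.81% and 11.9% of all genes. Tet1, which oxidises methylcytosine, was at −1.08 (SE 0.15) and Cbx2 at −1.04 (SE 0.21). The falls numbered 8 with upper-quartile scaling, DESeq2 or the replicate block, 3 without PBS replicate 2 and 2 without PBS replicate 4. The rises numbered 1 without LPS replicate 1 or PBS replicates 1, 3 or 4. With upper-quartile scaling, DESeq2's size factors in edgeR, no filter, the naive libraries alone or the replicate block the rises also numbered 1. They numbered 0 without PBS replicate 2 and on the TPM scale, and 3 with DESeq2. Of 24 adhesion and homing genes, 4 rose and 7 fell, 1 and 9 on the TPM scale, led by Alcam, an immunoglobulin-type adhesion molecule (−2.58, SE 0.23), and the lectin-like receptor Cd93 (−1.26, SE 0.17).

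Of 17 quiescence genes 7 fell and 2 rose, beside 11.9% and 9.81% of all genes. The rises numbered 1 without LPS replicate 1 or PBS replicate 2 or 3 and on the TPM scale. The stress-response genes Sesn1 (−1.21, SE 0.16) and Sesn3 (−1.11, SE 0.24) and the antiproliferative Tob1 (−0.76, SE 0.17) fell. Ndn, a growth suppressor, held 57, 18, 16 and 24 counts after PBS and 0, 0, 3 and 0 after LPS, so that PBS exceeded LPS 30.1-fold per total count (95% exact interval 10.0 to 148, counting error only). The kinase inhibitor Cdkn1c fell from 2.08, 2.10, 2.94 and 3.05 TPM to 1.10, 0.98, 0.51 and 0.14 TPM (−1.87, SE 0.50), a low level in both groups. Of 21 genes of transforming growth factor beta signalling, 2 rose and 4 fell, the rises near the share of all genes. Id1, a target of the bone morphogenetic branch, went from 1.20, 1.47, 1.28 and 0 TPM to 6.91, 7.98, 7.01 and 6.35 TPM (2.88, SE 0.55), and Smad6, an inhibitor of that branch, fell by 1.85 on the log2 scale (SE 0.35), a call absent on the TPM scale. The falls of this list numbered 2 without LPS replicate 3 or PBS replicates 1 or 3 and 0 on the TPM scale, and 1 gene rose without LPS replicate 1 or PBS replicate 3 and on the TPM scale.

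Of 27 genes of G2 and mitosis, 4 rose and 0 fell, 25 had a change above 0 and the median was 0.43. Of 29 genes of DNA replication, 5 rose and 1 fell, 22 had a change above 0 and the median was 0.16. Over all genes, 9.81% rose and 11.9% fell. Mki67, a proliferation marker, was at 79.6, 98.1, 117 and 42.6 TPM after PBS and 135, 194, 89.0 and 57.6 TPM after LPS and was not called (0.64, SE 0.28). Cyclin E1, encoded by Ccne1, rose from 6.18, 7.11, 8.91 and 2.81 TPM to 17.6, 20.6, 23.8 and 10.6 TPM (1.41, SE 0.41), but the call was lost without LPS replicate 3 (1.14), PBS replicate 2 (1.42) or PBS replicate 4 (1.26). The mitotic rises numbered 11 without LPS replicate 4, 2 without LPS replicate 1 or PBS replicates 1 or 3, 1 without LPS replicate 2 or PBS replicates 2 or 4, and 0 on the TPM scale. The replication rises numbered 3 without PBS replicate 3, 1 without LPS replicates 2 or 3 or PBS replicate 1 and on the TPM scale, and 0 without PBS replicates 2 or 4.

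Factors that build ribosomes rose, while few ribosomal proteins were called. The shares over all tested genes were 9.81% higher and 11.9% lower. Of 24 ribosome biogenesis factors, 18 rose and 0 fell (median 0.76), and Nop56, which guides ribosomal RNA methylation, went from 311, 338, 345 and 213 TPM to 467, 624, 470 and 402 TPM (0.77, SE 0.14). Rrp12 rose by 0.91 (SE 0.15) and Nop2 by 0.94 (SE 0.18). Of 77 cytosolic ribosomal proteins, 1 rose and 0 fell, and their median was 0.02, equal to that of all genes. That rise, of Rps24 (0.70, SE 0.23), was absent on the TPM scale (0.04), with upper-quartile scaling (0.63) and without LPS replicate 1 (0.72), LPS replicate 2 (0.60), LPS replicate 4 (0.65), PBS replicate 1 (0.69), PBS replicate 2 (0.64) or PBS replicate 3 (0.62). On the TPM scale 8 biogenesis factors rose. The list summed to 1992 to 3060 TPM after PBS and to 4556, 9031, 4311 and 2814 TPM after LPS, so that LPS replicate 2 stood far above the others and LPS replicate 4 lay within the PBS range. Myc, a driver of growth genes, was at 309, 320, 395 and 324 TPM after PBS and 646, 473, 388 and 328 TPM after LPS. Its rise of 0.55 (SE 0.15, edgeR adjusted p = 0.0158) was lost without PBS replicate 2 (0.49) and on the TPM scale (0.40). The Myc antagonist Mxd4 (−0.99, SE 0.20) and the relative Mycl (−3.71, SE 0.83) fell. The E-box CACGTG, to which Myc binds, was in 5 of 20 biogenesis promoters (25.0%) and in 11.8% of all. Among the 16 of these biogenesis genes called higher, 4 held it.

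Protein synthesis, degradation and mitochondrial supply showed small rises and 0 falls. Of 34 proteasome genes, all 34 had a change above 0 and 16 were called, beside 9.81% of all genes called higher. Psma3, a core subunit, rose from 171, 174, 180 and 201 TPM to 348, 461, 286 and 264 TPM (0.79, SE 0.16). Of 29 translation factors 12 rose, with Eif2s2 at 0.97 (SE 0.22) and Eif2b3 at 0.89 (SE 0.20), both in the step that loads the initiator transfer RNA. Of 22 mitochondrial import and chaperone genes 12 rose, with Hspe1 at 1.21 (SE 0.20) and Timm10 at 0.85 (SE 0.17), and of 53 nuclear genes of oxidative phosphorylation 14 rose. Of the 13 protein genes of the mitochondrial genome edgeR called 0 with all libraries, 1 higher in the fit to the naive libraries alone and 1 lower without LPS replicate 4. For proteasome, translation, import and oxidative phosphorylation in that order, the rises numbered 3, 4, 4 and 0 on the TPM scale and 6, 6, 6 and 2 without PBS replicate 2. Without PBS replicate 3 they were 6, 8, 7 and 4, and without LPS replicate 2 they were 8, 6, 10 and 7. Without LPS replicate 3 they were 10, 10, 7 and 9, without PBS replicate 1 they were 10, 10, 9 and 11, and without PBS replicate 4 they were 10, 9, 7 and 10. In metabolism, the glucose transporter Slc2a3 (−0.69, SE 0.15) fell and the lactate transporter Slc16a1 (1.002, SE 0.23) rose. Of 18 cholesterol synthesis genes 2 fell, near the share of all tested genes that fell (11.9%). Insig1, a sterol sensor, went from 24.5, 30.5, 23.6 and 32.2 TPM to 16.8, 13.2, 12.4 and 9.67 TPM (−1.12, SE 0.21), and the sterol regulator Srebf2 fell by 1.07 on the log2 scale (SE 0.25).

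Chaperones of the cytosol and the endoplasmic reticulum rose. The share called higher over all tested genes was 9.81%. The heat shock list had 11 rises and 0 falls among 18 tested, and Hsph1, a nucleotide exchange factor of Hsp70, went from 26.0, 24.7, 35.9 and 14.96 TPM to 63.7, 121, 54.5 and 52.6 TPM (1.48, SE 0.22). The rises numbered 7 without PBS replicate 2 or PBS replicate 3 and 2 on the TPM scale. Of 22 folding genes of the endoplasmic reticulum 12 rose and 0 fell, 8 to 13 without 1 naive library and 2 on the TPM scale. The growth-supporting factor Manf rose by 0.97 (SE 0.22) and the chaperone Hyou1 by 0.92 (SE 0.19). Calr, a calcium-binding lectin chaperone, went from 645, 578, 671 and 436 TPM to 1260, 3984, 899 and 558 TPM. Here the groups overlapped in TPM, though not in CPM, and replicate 2 was far above the others. The rise of 1.24 (SE 0.30) was not called on the TPM scale.

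The endoplasmic reticulum stress element, bound by Atf6 and Xbp1 with the factor NF-Y, was searched as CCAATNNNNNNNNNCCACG. It stood in 7 of 18 promoter windows of this list (38.9%) and in 0.175% of all. Among the 9 list members called higher with a window, 4 held it. The 3 examples below, of genes called higher, show it in capitals with the same conventions.
Hspa5, chr2:34772015-34772053, plus strand: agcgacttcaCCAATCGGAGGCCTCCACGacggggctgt
Hsp90b1, chr10:86705628-86705666, minus strand: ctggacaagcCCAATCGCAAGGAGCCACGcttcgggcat
Calr, chr8:84847065-84847103, minus strand: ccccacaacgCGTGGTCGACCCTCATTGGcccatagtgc
In Calr the element reads in reverse. Hspa5, the main chaperone of this compartment, rose by 0.97 (SE 0.24), and Hsp90b1 rose by 1.25 (SE 0.34), a value of 0.61 without LPS replicate 2. Both calls were absent on the TPM scale. The heat shock element, searched as 3 alternating units, was in 1 of 14 heat shock promoters, that of Hsph1, and in 0.534% of all.

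Genes that bind or carry metals rose. Of 17 tested 8 rose and 0 fell, beside 9.81% and 11.9% of all genes. The rises numbered 5 without LPS replicate 3 or PBS replicates 1, 3 or 4 and on the TPM scale. Mt1, a metallothionein that binds zinc and copper, rose from 32.7, 35.9, 41.3 and 11.2 TPM to 695, 415, 292 and 208 TPM (3.85, SE 0.75, edgeR adjusted p = 0.00231). The neighbouring Mt2 rose by 3.84 (SE 0.96), and so did their activator Mtf1 (0.79, SE 0.16), the transferrin receptor Tfrc (2.28, SE 0.29) and the iron importer Slc11a2 (1.61, SE 0.36). The stretch before the start of Mt2 shows 5 of the 6 matches in its window to TGCNCNC, a loose form of the metal response core that Mtf1 binds. N stands for any base, so a match need not be a site that Mtf1 binds.
Mt2, chr8:94172389-94172580, plus strand: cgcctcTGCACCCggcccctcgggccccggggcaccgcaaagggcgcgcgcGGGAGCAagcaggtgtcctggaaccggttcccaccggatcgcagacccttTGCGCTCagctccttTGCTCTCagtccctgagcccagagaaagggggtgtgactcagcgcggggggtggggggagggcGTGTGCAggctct
This loose pattern is short and stood in 63.8% of all windows, but 6 or more matches stood in 0.427%.

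Stress and survival lists are given beside the 9.81% of all tested genes that rose and the 11.9% that fell. Of 18 Atf4 targets 5 rose and 2 fell, the falls near that share, with asparagine synthetase Asns higher (1.97, SE 0.49). The pseudokinase Trib3 fell from 3.61, 2.62, 3.56 and 2.63 TPM to 1.47, 0.15, 0.55 and 0.35 TPM (−2.89, SE 0.63). These counts were 1 rise and 1 fall without PBS replicate 2, 2 rises and 2 falls without LPS replicate 3, 3 rises and 1 fall without LPS replicate 2 or PBS replicates 1, 3 or 4, and 1 fall without LPS replicates 1 or 4. On the TPM scale they were 1 and 1. Of 18 p53 targets 6 rose and 2 fell, the falls again near the share of all genes. Aen, an apoptosis nuclease, was at 0.84 (SE 0.13). Pmaip1, the death inducer Noxa, went from 1.18, 1.25, 1.86 and 0.48 TPM to 5.11, 7.90, 3.09 and 3.41 TPM (2.19, SE 0.37). Bax, an effector of mitochondrial death, rose from 42.5, 38.3, 41.9 and 28.9 TPM to 79.3, 72.8, 74.2 and 56.3 TPM (1.03, SE 0.19). The falls of this list numbered 1 without PBS replicate 4. Of 13 Bcl2 family genes 3 rose and 3 fell, but 0 fell without PBS replicates 2 or 3 and 1 without any other naive library, and 2 rose without LPS replicate 2 or PBS replicate 2. Of 17 immediate early genes, which mark handling as well as signalling, 0 rose and 3 fell, 1 without LPS replicate 2 or 3 or any 1 PBS library, and Fosl2 was among them (−1.17, SE 0.22).

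Among other cells that a sort could hold, lymphocyte, neutrophil, monocyte, dendritic cell, endothelial and stromal markers were not higher in sum after LPS. The erythroid list summed to 689 to 1008 TPM after PBS and 1478 to 3047 TPM after LPS. For basophils and mast cells the sums were 152 to 262 and 440 to 977 TPM, and for megakaryocytes 394 to 578 and 495 to 733 TPM. Summed levels over whole marker lists in PBS and LPS libraries were 14.96 to 26.4 and 4.31 to 14.7 TPM for T and natural killer cells, 10.9 to 28.9 and 7.82 to 12.5 TPM for mature neutrophils, 28.2 to 43.2 and 28.1 to 38.9 TPM for monocytes and macrophages and 20.8 to 28.1 and 14.04 to 22.95 TPM for marrow stroma. For B and plasma cells they were 486 to 822 and 64.05 to 132 TPM, mostly from Ighm and from Igkc, the kappa light chain, at 312 to 540 and 37.7 to 87.8 TPM. Of 6 tested dendritic cell genes 4 fell and 1 rose, beside 11.9% and 9.81% of all genes. The rise was lost without any 1 naive library but LPS replicate 2. Clec9a, a receptor of cross-presenting dendritic cells, fell (−3.63, SE 0.69), and the list summed to 4.44 to 15.4 TPM after PBS and 4.39 to 9.33 TPM after LPS. Endothelial markers fell in 3 of 6 cases, with a summed level of 87.1 to 105 TPM after PBS and 37.2 to 57.85 TPM after LPS. Tie1, which stem cells also express, went from 36.2, 41.0, 35.3 and 32.2 TPM to 11.2, 8.79, 9.70 and 11.5 TPM (−1.67, SE 0.22). The defining endothelial marker Cdh5 was at 0 to 0.34 TPM, and T cell marker Cd3e at 0 to 0.21 TPM. The part of such other cells in the results above was not tested.

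**Figure D3:**
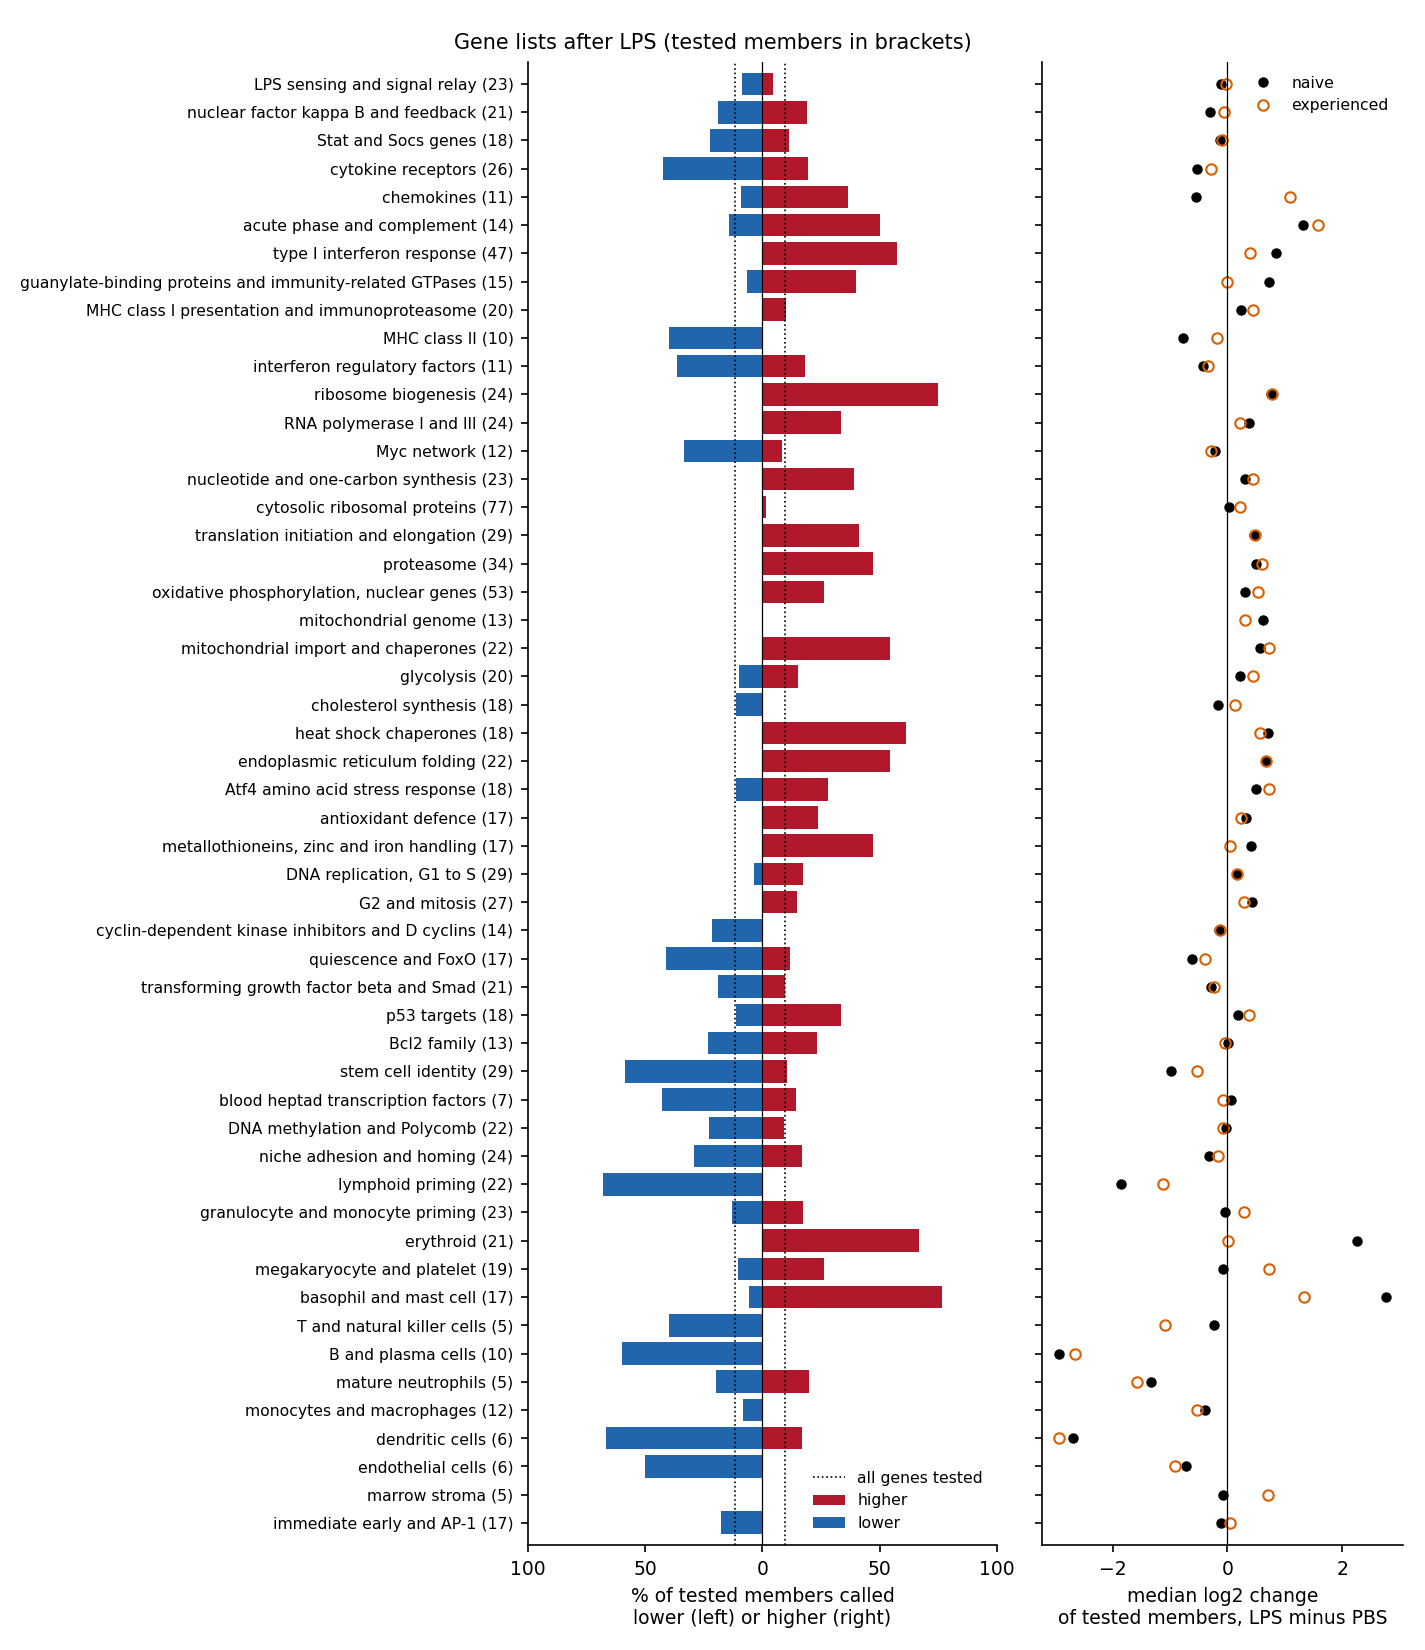
For each of 52 gene lists, bars give the percentage of tested members called lower (left, blue) or higher (right, red) after LPS in naive HSPCs, with dotted lines at the 11.9% and 9.81% of all tested genes. On the right, filled points give the median log2 change in naive and open points in experienced HSPCs, and the erythroid list shows the widest gap between them, 2.25 against 0.01.

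Whether this response differed from that of HSPCs that had lived beside leukaemia was asked with the interaction, the LPS response in experienced minus that in naive HSPCs. EdgeR called 0 of 15186 genes (0%), with 695 at an unadjusted p under 0.05 and a smallest adjusted p of 0.884. DESeq2 called 1 and limma on TPM 0. In simulated data the interaction test recovered 22% of genes with a 2-fold and 72% with a 4-fold difference. Most genes that differed 2-fold were missed there and may be missed here, though the simulated spread was simpler than that of the data. In experienced HSPCs 1940 genes (12.8%) were called, and 1388 genes were called in the same direction in both, which is 42.15% of the naive and 71.5% of the experienced calls. Beside the naive values given above, the experienced change was 8.12 for Cfb, 3.60 for Csf2rb2, 1.87 for Ly6a and −3.97 for Dntt. It was 0.60 for Gata1, 0.71 for Rhag and 1.36 for Mt1, none of them called there. The genes with the lowest interaction p were Arl4aos (2.94 in naive, −1.21 in experienced), Surf2 (0.73 and 0.04), Ubash3b (−0.46 and 0.22), Rps4l (−1.98 and 0.89) and Ank3 (0.44 and 4.09), none past adjustment.

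**Figure D4:**
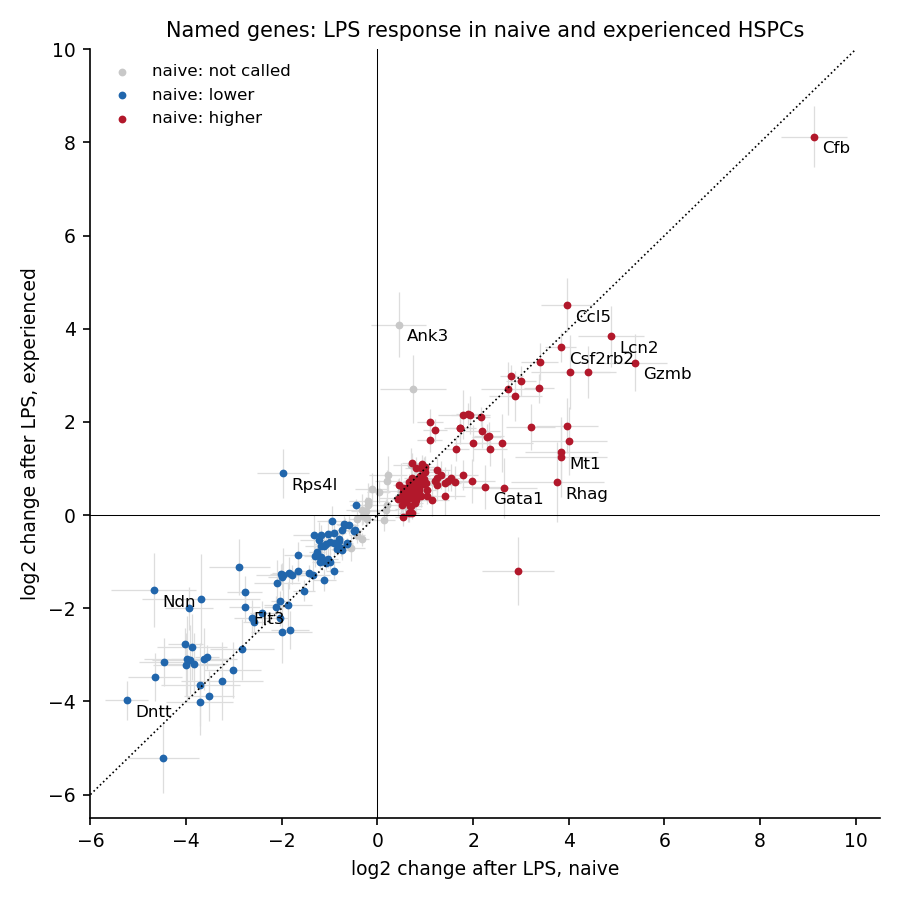
Log2 change after LPS in naive (horizontal) and experienced (vertical) HSPCs for the named genes, with bars of 1 SE, colours for the naive call and a dotted line of equality. Cfb and Csf2rb2 lie near the line, and Gata1, Rhag and Mt1 lie below it, with no difference called by edgeR.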

How the data were processed

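RNA was measured in sorted HSPCs from 16 biological replicates, 4 in each of 4 groups taken from the titles. The labels list 2 technical replicates each, with 1 deposited table for both, and name a droplet single-cell library kit although the tables are bulk. Whether replicates came from separate animals is not stated in them, and p-values then reflect only how far these samples differ, which may be technical. Reads were processed with Trim Galore 0.6.7, STAR 2.7.10a and RSEM 1.3.1 on GRCm38, per the submitters' processing notes. The deposited expected counts are RSEM estimates that need not be whole, and the deposited TPM are scaled for gene length, per the file headers. RSEM divides reads among similar genes, so values of Csf2rb and Csf2rb2, Mt1 and Mt2, and of the Ly6, Ifit, H2, Serpina3 and Clca families are uncertain.

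Of 45706 gene identifiers, 45143 matched GENCODE's GRCm38 annotation. Expected counts were rounded, filtered by edgeR's expression filter by group (15186 genes with 99.93% of counts kept) and scaled by TMM. All 16 libraries entered 1 fit in edgeR 4.0.16 (R 4.3.3) with a mean for each group (common biological coefficient of variation 0.306, 12 residual degrees of freedom, median SE 0.25), and genes at an adjusted p under 0.05 were called. In simulated data with these means and library sizes (14999 genes) the naive contrast recovered 8% of genes changed 1.5-fold, 54% at 2-fold, 66% at 3-fold and 86% at 4-fold, with 4 false calls. Each fold was given to 50 genes, none of them scarce, and all groups shared a single spread per gene. In the data 3293 genes were called, and the median within-group SD was 0.39 after LPS and 0.18 after PBS. These rates therefore need not hold for the data. Other fits were DESeq2 1.42.0, limma 3.58.1 on log2(TPM + 1), called the TPM scale, and log2(TPM + 0.1), other scalings, no filter, the naive libraries alone, a replicate block, and leaving out each library. Unless said otherwise, changes are edgeR's log2 changes with their SE, and lists are described by counts, not tested. List counts are to be read against the 9.81% of all tested genes called higher and the 11.9% called lower. Adjusted p-values were under 0.05 wherever a rise or fall is stated.

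The 52 lists, the members and the rule for named genes were chosen with earlier results of these data known. Named genes were the 12 largest rises and 12 largest falls among called genes whose groups did not overlap and whose mean log2 CPM reached 2 (gene models, receptor segments, Xist and Y-linked genes left out), up to 4 members of each list, by lowest adjusted p, 30 fixed genes, the 5 lowest adjusted p of the interaction and the 10 most abundant genes. Values of markers at or near 0, and Isg15, Ifit1, Bst2, Hspa5, Hsp90b1, Ifngr1 and Ifnar1, were added after values were seen. Promoter windows (300 bases) came from RefSeq on GRCm38.p6 for 10296 tested genes. A few members of these lists are counted but not reported here by name.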

Additional observations from a re-analysis of the deposited data

Results flagged for a closer look

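Dixon's ratio for groups of 4 was computed for the TPM of 48 genes and for 4 measures of library quality, 104 groups of 4 in all, and 8 exceeded the 95% critical value. Chance flags about 1 in 20 groups. Cfb stood out in both groups, with replicate 2 at 0.12 TPM among PBS libraries otherwise at 0 and replicate 2 at 4.39 TPM among LPS libraries otherwise at 7.09 to 7.41. The PBS value is 1 count, and beside 3 libraries at 0 any value above 0 would be marked. LPS replicate 1 was high for Gata2 (254 TPM against 126 to 138) and for Clca3a1 (73.8 TPM against 35.9 to 37.9). LPS replicate 3 was high for Ms4a3 (235 TPM against 127 to 140), and LPS replicate 2 was high for Hsph1 (121 TPM against 52.6 to 63.7). PBS replicate 4 was low for Itga2b (53.5 TPM against 109 to 119) and in detected genes (17609 against 19476 to 19673). None of these genes lost its call without the library named.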

How the results depend on the processing

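Leaving out 1 naive library gave 768 to 1773 rises and 1233 to 1717 falls, the fewest rises without PBS replicate 2. Limma on log2(TPM + 1) gave 374 rises and on log2(TPM + 0.1) 361, and the median log2 change of all genes was 0.02 by edgeR and −0.11 by limma on log2(TPM + 0.1). The cause was not tested. Without experienced LPS replicate 4, an alternative chosen after seeing the data, there were 2184 rises and 2214 falls. The interaction had 0 calls in all fits but DESeq2 (1), including each of the 16 that left out a library. The other scalings, no filter, DESeq2, the naive libraries alone and the replicate block kept both naive counts within 1.5 times. Replicate numbers did not pair the samples (correlations of −0.096, −0.006, −0.089 and 0.005 between same-numbered libraries), and with the replicate block there were 1236 rises and 1684 falls. Among lists with at least 3 calls in 1 direction, the block moved the DNA methylation and Polycomb falls from 5 to 8, the Bcl2 family falls from 3 to 1, the DNA replication rises from 5 to 3 and the nucleotide synthesis rises from 9 to 5. Of the called genes, 1741 kept their call without each naive library and 1552 lost it at least once. Depth limits scarce genes such as Cfb and Ndn.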
